A study of Mus musculus with 4 samples.

Results

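Interferon-high iNKT1 cells are thymic iNKT1 cells that carried many transcripts of interferon-induced genes. Invariant natural killer T (iNKT) cells carry a semi-invariant T cell receptor for lipids on CD1d, and iNKT1 is their interferon-gamma-producing, NK-receptor-bearing subset. The cells were chosen by summed UMI counts, a UMI being a tagged molecule counted a single time. A kept cell was in the iNKT1 gate when Nkg7, Klrd1, Il2rb, Klrk1 and Xcl1 together gave at least 8 UMIs and more than 2 times the sum of 5 iNKT2 genes, with fewer than 6 UMIs of iNKT17 genes and fewer than 4 of cell cycle genes. A gated cell was called interferon-high when Ifit1, Ifit3, Isg15, Rsad2, Usp18, Cmpk2 and Irf7, here the interferon sum, gave at least 8 UMIs. This took 858 of 7739 gated cells (11.1%) and of 15767 kept cells in all. The other 6881 gated cells of the same libraries, with a sum below 8, served for comparison.

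The cells came from the thymus of 2 inbred mouse strains, BALB/c and B6, and were sorted on CD3 and on a CD1d reagent loaded with the glycolipid PBS57. Each strain had 2 libraries made with a droplet kit that reads the 5' end of transcripts. The sources used here give no treatment, age or sex, and strain is the only label that separates the groups. Nor do the labels tell if both libraries of a strain were made from different mice. The permutation p-values therefore measure the spread between these libraries, which may be technical. The p-values of the gene tests concern the change within a library. They rest on how that change varied between libraries, with the spread estimated partly over other genes.

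Type I interferons bind the receptor made of Ifnar1 and Ifnar2, and interferon gamma binds Ifngr1 and Ifngr2. Both act through JAK kinases and STAT factors. Type I interferons act largely through a complex with Stat2 and Irf9 that binds the interferon-stimulated response element (ISRE), and interferon gamma through the gamma-activated site (GAS). The induced genes encode antiviral effectors, sensors of foreign RNA and DNA, and antigen-presentation proteins. A tonic interferon response is a known feature of the healthy thymus.

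The 7 genes of the interferon sum chose the cells, so their levels are a description and were not tested. Isg15, a ubiquitin-like modifier, stood at 1092, 999, 758 and 855 counts per 1000000 UMIs (CPM) in interferon-high cells. The order of libraries is BALB/c 1 and 2 followed by B6 1 and 2. In the other iNKT1-gated cells it stood at 36.0, 30.8, 36.2 and 45.7 CPM in the same order, which is kept throughout. Isg15 and Irf7, a transcription factor of interferon genes, gave the sum much of its weight. Isg15 supplied 35.7, 34.3, 27.3 and 29.3% of its UMIs in interferon-high cells, and Irf7 supplied 24, 22.7, 20.9 and 19.2%. Irf7 was also the member with the highest level outside the interferon-high cells: 732, 660, 580 and 560 CPM in interferon-high cells, against 98.3, 84.1, 80.9 and 83.5 CPM in the others. Rsad2 (viperin), an enzyme that makes a chain-terminating nucleotide against viral polymerases, was at 88.4, 76.4, 93.3 and 123 CPM in interferon-high cells. In the other cells it had no UMI in the BALB/c libraries, which allows up to 1.71 and 0.789 CPM, and stood at 1.19 and 1.75 CPM in the B6 libraries. Nkg7, a granule protein that helped to set the iNKT1 gate, was at 1244, 2074, 1679 and 1587 CPM in interferon-high cells, against 1791, 1742, 1728 and 1684 CPM in the others. The label of iNKT1 cells that respond to interferon therefore rests on genes of both sums, and Tbx21, an iNKT1 factor outside the rule, was present in every library.

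Promoter sequences are shown for those members of the interferon sum, and for the tested genes of lowest p, whose upstream region held the ISRE letters, since both sets of genes were high in the same cells. The search for the ISRE took GAAA, any 2 bases and GAAA again, on both strands, in the 250 bases before the transcription start, with sequences and starts from RefSeq (GRCm38.p6). A window of 100 bases is printed 5′ to 3′ on the strand of the gene, and capitals mark the matches, which read as TTTC, 2 bases and TTTC when the match is on the opposite strand. The coordinates are chr19:34640749-34640848 (+) for Ifit1, chr19:34583345-34583444 (+) for Ifit3, chr4:156200836-156200935 (-) for Isg15, chr12:26456518-26456617 (-) for Rsad2 and chr8:71537545-71537644 (-) for Bst2.
Ifit1: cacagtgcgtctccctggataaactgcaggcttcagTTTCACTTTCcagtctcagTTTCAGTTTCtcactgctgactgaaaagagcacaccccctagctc
Ifit3: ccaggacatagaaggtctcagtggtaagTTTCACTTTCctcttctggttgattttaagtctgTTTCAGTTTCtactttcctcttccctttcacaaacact
Isg15: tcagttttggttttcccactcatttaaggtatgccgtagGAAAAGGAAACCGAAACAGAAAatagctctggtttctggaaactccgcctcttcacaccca
Rsad2: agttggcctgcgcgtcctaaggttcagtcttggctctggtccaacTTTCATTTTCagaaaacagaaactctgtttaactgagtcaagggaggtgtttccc
Bst2: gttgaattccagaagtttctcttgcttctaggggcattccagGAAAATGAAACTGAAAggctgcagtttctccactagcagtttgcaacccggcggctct

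The windows of Ifit1 and Ifit3 held 2 separate matches each, that of Rsad2 1 match, and those of Isg15 and Bst2 had 3 and 2 matches that overlap in a single run. The promoter windows of Cmpk2 and Irf7 held no match, and Usp18 and Rtp4 had no sequence printed. Ifit3 and its neighbour Ifit3b had nearly the same promoter, with 217 of 218 aligned bases identical. Promoter bases do not tell if reads of this pair were split by the authors' counting, and this was not tested. The ISRE letters stood within these 250 bases in 3.46% of the 27025 promoters available and in 3.31% of the 7466 that belong to tested genes. The letters stood in 60 of 427 promoters (14.1%) of the genes called higher in interferon-high cells, described next. Of those raised by more than 1 on the log2 scale, 42 of 120 (35.0%) held them, and of those called lower, 3 of 267 (1.12%). The GAS letters (TTC, any 3 bases, GAA) were more even: 9.84% of the genes called higher and 8.61% of those called lower held them, beside 7.15% of the tested genes. A match is a description of letters and was not tested as a binding site.

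Total UMIs per library were 20406245 to 82904358, and 1896, 1947, 2378 and 9546 cells were kept. Of 16212 distinct barcodes, 107 occurred in more than 1 library, and an interferon-high cell shared its barcode with an interferon-high cell of another library in 2 cases. The depth of interferon-high cells was close to that of the others, with median UMIs of 6759, 6669, 7221.5 and 6904, against 6544, 6896, 7051.5 and 6875. Cells with the highest Scrublet doublet scores were kept, and made up 10.0, 0, 4.69 and 10.7% of interferon-high cells, against 1.14, 0.928, 2.43 and 9.03% of the others. The part of doublets in the results was not tested beyond the fits without these cells.

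The interferon-high cells numbered 20 and 47 in the BALB/c libraries, and 128 and 663 in the B6 libraries. Their share of iNKT1-gated cells was 7.07% (95% exact Clopper-Pearson interval 4.37 to 10.7%) in BALB/c 1 and 8.02% (5.95 to 10.5%) in BALB/c 2. It was 9.13% (7.67 to 10.8%) in B6 1 and 12.1% (11.3 to 13.0%) in B6 2, and these intervals cover counting error only. Both B6 libraries lay above both BALB/c libraries, with a BALB/c mean of 7.54 ± 0.67% and a B6 mean of 10.6 ± 2.12% (SD, n = 2 each). The difference was -3.08 percentage points, with an exact two-sided permutation p of 0.33 over libraries, the smallest that 2 against 2 can give. When every gated cell was thinned to 5000 UMIs and shallower cells were left out (46, 78, 188 and 777 cells), the BALB/c shares became 7.17 and 7.48% and the B6 shares 6.18 and 9.04%. The strains then overlapped, with a difference of -0.28 points and an exact permutation p of 1. When the iNKT1 gate was applied to the thinned counts as well, the difference was -0.61 points, with means of 6.90% in BALB/c and 7.51% in B6 and again a p of 1. Cells of B6 made up 92.2% of the interferon-high cells and 88.8% of all iNKT1-gated cells.

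**Figure D1:**
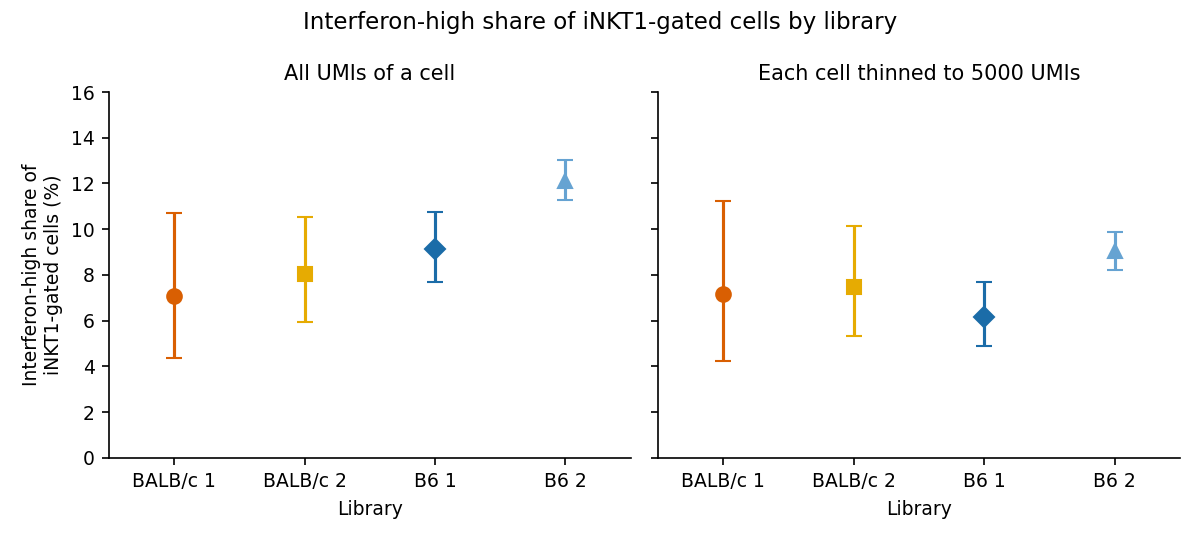
Share of iNKT1-gated cells that were interferon-high in each library (%), from all UMIs in the left panel and after thinning to 5000 UMIs in the right, with exact 95% intervals as bars. From all UMIs both B6 libraries (9.13 and 12.1%) lie above both BALB/c libraries (7.07 and 8.02%), whereas after thinning B6 1 lies lowest at 6.18%.

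The interferon sum had medians of 25, 14, 15 and 15 UMIs in interferon-high cells, against 1, 0, 1 and 1 in the other iNKT1-gated cells, and reached 40, 59, 137 and 124. Cells lay close to the threshold on both sides. A sum of 8, just inside, was found in 0, 6, 13 and 78 cells, and a sum of 7, just outside, in 3, 5, 24 and 86 cells. Interferon-high cells are a range of a score and not a separate type. Over all iNKT1-gated cells, with no threshold, the 7 genes gave 3.96 and 3.54 UMIs per 10000 in the BALB/c libraries, and 4.18 and 5.39 in the B6 libraries. The strain difference of -1.04 per 10000 had the same exact permutation p of 0.33, and it was -0.27 once the interferon-high cells were left out. Thinning to 5000 UMIs did not shrink this difference, unlike that in share: it became -1.17 per 10000. The lower B6 library (B6 1, at 4.17) still lay above the higher BALB/c library (BALB/c 1, at 3.93), and the exact permutation p stayed at 0.33.

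UMI counts were then summed per library over interferon-high and over other cells, and compared with edgeR's quasi-likelihood test with the library as a block and Benjamini-Hochberg adjustment over all genes tested. The 30 genes of the rule were left out of the tests, and 9374 genes were tested. Since the cells were split by their interferon sum, the comparison says which other genes varied with that sum across cells of the same library. In interferon-high cells 545 genes (5.81% of those tested) were called higher and 326 (3.48%) lower at an adjusted p under 0.05, together 871 (9.29%). Of these, 385 (4.11%) were higher and 236 (2.52%) lower in all 4 libraries. The 15 lists of genes of the interferon system held 154 tested members, of which 126 rose and 2 fell, with a median log2 change of 0.96 beside -0.0031 over all tested genes. By library this median was 1.09, 1.11, 0.94 and 0.94. DESeq2 called fewer genes, 262 higher and 37 lower, but 117 of the 154 list members were still called higher. Without scaling factors the split over all genes was 448 higher and 554 lower, and without B6 2, which holds most of the cells, it was 244 higher and 53 lower.

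**Figure D2:**
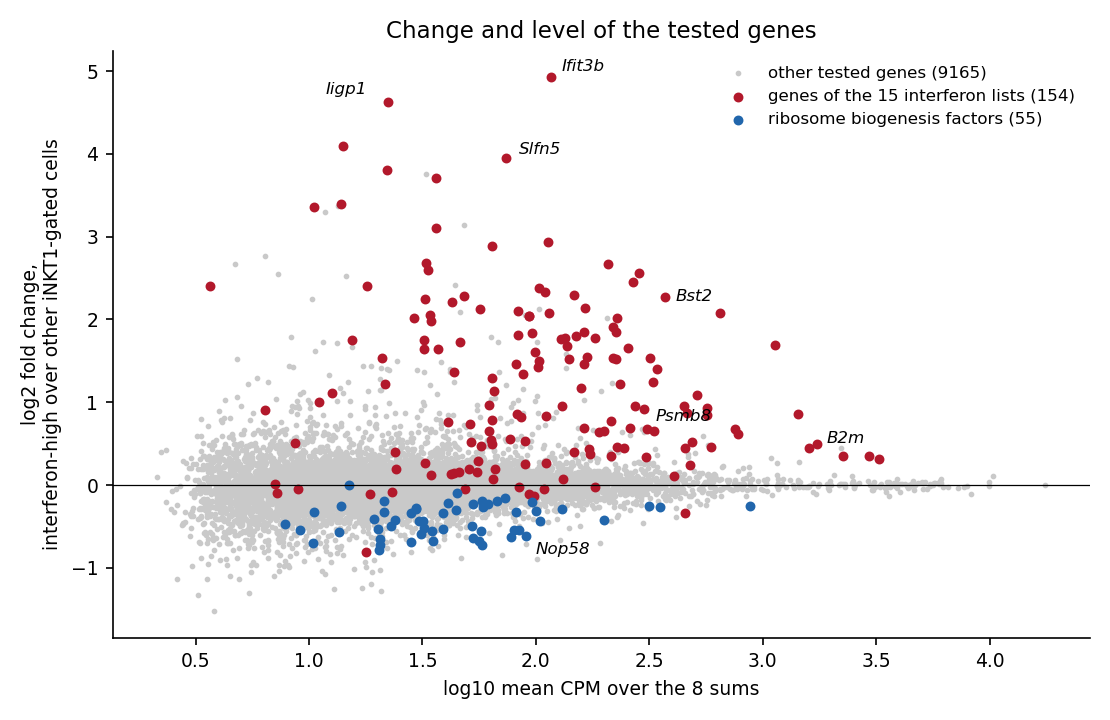
Log2 fold change of interferon-high over other iNKT1-gated cells (y axis) against the log10 mean CPM (x axis) for the 9374 tested genes, with the 154 members of the interferon lists and 55 ribosome biogenesis factors in colour. Most interferon-list genes lie above 0, up to 4.92 for Ifit3b, and most ribosome biogenesis factors lie below 0 with smaller changes.

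Among the ligands, transcripts of type I and type III interferons were nearly absent from iNKT1-gated cells. The 10 genes listed, Ifnb1 and members of the Ifna, Ifnl, Ifnk and Ifne families, gave 0 UMIs in interferon-high cells, which allows each of them up to 0.447 CPM over the 4 libraries, and 1 UMI in the others. Ifng was at 92.5, 57.0, 44.2 and 34.8 CPM in interferon-high cells, against 95, 67.5, 26.4 and 28.2 CPM in the others. Its levels overlapped, it was higher in the B6 libraries only, and the log2 change of 0.29 was not called (edgeR quasi-likelihood test, Benjamini-Hochberg adjusted p = 0.11). In a fit of the B6 libraries alone Ifng was called higher (0.39), and with BALB/c alone its change was -0.13.

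Of 4 receptor genes tested, 2 rose, and by little. Ifngr1, the ligand-binding chain for interferon gamma, rose by 0.24 ± 0.05 (log2 change ± SE), with 512, 605, 488 and 473 CPM in interferon-high cells, against 434, 484, 429 and 399 CPM in the others. Ifnar2 rose by 0.25 ± 0.08 over all libraries but was lower in interferon-high cells of BALB/c 1, at 61.6 CPM against 78.6 CPM. For Ifnar1 the log2 change was 0.19 and was not called. The Ifnar1 and Ifnar2 calls depended on the setting: Ifnar1 was called with comparison cells matched for depth (0.40), and Ifnar2 was not called with DESeq2, without B6 1 or without B6 2.

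Of the genes of signal transduction, Stat2, Irf9, Jak2 and Irf1 had larger log2 changes than any receptor gene tested. Stat2 stood at 123, 104, 62.2 and 83.7 CPM in interferon-high cells, against 23.8, 17.8, 18.2 and 18.9 CPM in the others, and rose by 2.13 ± 0.11. The groups did not overlap. Irf9, its DNA-binding partner, rose by 1.34 ± 0.08. Its levels were 129, 133, 107 and 136 CPM in interferon-high cells and 48.6, 45.7, 52.1 and 51.9 CPM in the others. Jak2, a kinase of the interferon gamma receptor, rose by 0.65 ± 0.08, and Irf1, a factor induced through GAS elements, by 0.64 ± 0.06. In all, 7 of 12 tested JAK, STAT and IRF genes rose and none fell.

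Of 18 tested antiviral effectors 17 rose, with a median log2 change of 1.80. The largest change of all tested genes that met the rule for naming was that of Ifit3b, an RNA-binding IFIT protein, with 265, 168, 236 and 245 CPM in interferon-high cells, against 3.96, 3.46, 5.51 and 9.31 CPM in the others. Its log2 change was 4.92 ± 0.09, and it shares sequence with Ifit3 of the interferon sum. Isg20, an exonuclease, was at 573, 507, 456 and 447 CPM in interferon-high cells, against 62.2, 67.3, 83.7 and 81.4 CPM in the others (2.56 ± 0.07). Rtp4, an inhibitor of flavivirus replication, was at 382, 509.8, 487 and 459 CPM in interferon-high cells, against 60.5, 77.1, 91.5 and 87.3 CPM in the others (2.46 ± 0.06). In each of these genes the lowest interferon-high library stood above the highest of the other sums. Ifi27l2a, a member of the Ifi27 family, was abundant in both groups and rose by 1.69 ± 0.04, to 1547, 1849, 1937 and 1613 CPM, against 532, 511, 604 and 509.6 CPM in the others. Ifi44 rose by 4.09 ± 0.32 from few molecules, with 18.5, 60.2, 20 and 9.17 CPM in interferon-high cells and at most 1.86 CPM in the others. Xaf1, which binds the inhibitor of apoptosis XIAP, rose by 2.30 ± 0.07.

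Of 10 nucleic acid sensors tested 7 rose. Zbp1, which binds Z-form RNA and DNA, was at 407, 396, 322 and 334 CPM in interferon-high cells, against 46.4, 44.7, 56.0 and 56.0 CPM in the others (2.66 ± 0.07). Ifih1, the RNA sensor MDA5, was at 148, 104, 94.8 and 108 CPM in interferon-high cells, against 13.6, 12.8, 14.9 and 14.4 CPM in the others (2.89 ± 0.10). The related helicases Dhx58 and Ddx58 (RIG-I) rose by 3.10 ± 0.15 and 1.80 ± 0.07, and the kinase Eif2ak2 (PKR), which stops translation on double-stranded RNA, by 2.28 ± 0.09. Of the sensors, Cgas, Mavs and Dhx9 were not called.

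All 6 tested oligoadenylate synthase genes, which activate RNase L or resemble those that do, rose with a median log2 change of 2.82. Oasl1 was at 74.0, 28.5, 81.1 and 87.2 CPM in interferon-high cells, against 3.96, 4.52, 4.84 and 6.88 CPM in the others (3.71 ± 0.15). Oas3 was even across strains, at 148, 155, 127 and 129.5 CPM in interferon-high cells, against 20.9, 25.8, 28.4 and 32.7 CPM in the others (2.10 ± 0.09). Oas1a gave UMIs in the B6 libraries only. It was at 111 and 104 CPM in interferon-high cells of B6 1 and 2, against 23.7 and 21.7 CPM in the other B6 cells. In BALB/c it had 0 UMIs in every sum, which allows up to 18.9 and 9.16 CPM in interferon-high cells and 1.71 and 0.789 CPM in the others (without scaling factors). Oasl2 likewise rested on B6, with 73.7 and 84.6 CPM in B6 interferon-high cells and 2 UMIs in all in those of BALB/c.

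All 16 interferon-induced GTPases tested rose, with a median of 1.63. They include the guanylate-binding proteins and the immunity-related GTPases, which attack vacuoles that hold pathogens. Gbp6 was at 222, 196, 179 and 215 CPM in interferon-high cells, against 20.4, 13.6, 25.5 and 29.7 CPM in the others (2.93 ± 0.08). Iigp1 was at 37.0, 25.3, 66.4 and 44.6 CPM in interferon-high cells and at most 2.20 CPM in the others (4.63 ± 0.23). Igtp, Irgm1 and Tgtp2 rose by 1.85 ± 0.06, 1.84 ± 0.07 and 1.78 ± 0.08. Members of this family are near copies of each other, and reads may have been split between them.

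The PYHIN genes, a cluster of nuclear DNA-binding proteins, rose in 7 of 8 tested cases, without Ifi204, which was counted on another list. Ifi214 was higher in the BALB/c libraries, at 296, 241, 105 and 90.4 CPM in interferon-high cells, against 53.7, 55.6, 19.0 and 18.0 CPM in the others (2.33 ± 0.09). Ifi213 was higher in the B6 libraries, at 12.3, 6.33, 296 and 287 CPM in interferon-high cells, against 2.26, 1.86, 86.8 and 78.3 CPM in the others (1.84 ± 0.07). Its BALB/c values rest on 2 UMIs in each interferon-high sum. Of both genes every library showed the higher level in its interferon-high cells, although sums of the different strains overlapped for Ifi213. These genes are near copies too, and the split of reads is uncertain.

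Of 6 Schlafen genes all rose, of 10 TRIM genes 9 and of 9 PARP and DTX genes 7. Slfn5 was at 209.6, 133, 100.1 and 121 CPM in interferon-high cells, against 6.22, 8.51, 6.28 and 8.42 CPM in the others (3.95 ± 0.11). Trim30a, a ubiquitin ligase family member, rose by 2.13 ± 0.07. Its neighbour Trim30d was at 43.2 and 77.1 CPM in B6 interferon-high cells, against 9.14 and 14.2 CPM in the other B6 cells, and had 0 UMIs in all BALB/c sums, as Oas1a did. Parp9 and Dtx3l, which form a complex that adds ADP-ribose and ubiquitin, rose by 2.05 ± 0.08 and 1.5 ± 0.08. Parp12 and Parp14 rose by 2.69 ± 0.16 and 1.76 ± 0.07.

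Of 5 tested genes on the list for attachment of Isg15 to proteins 4 rose. The activating enzyme Uba7 rose by 0.82 ± 0.08, and the ligases Herc6 and Trim25 by 2.38 ± 0.07 and 1.81 ± 0.09. Herc3, placed on this list without a test of its role, rose by 0.55 ± 0.08 and was not called with DESeq2 or without B6 2. Of 13 genes listed as negative regulators 5 rose and 2 fell. Trafd1, a feedback inhibitor of innate signalling, rose by 2.08 ± 0.08 and Socs1, which blocks JAK kinases, by 0.45 ± 0.06. Socs1 was at 240.4, 319.8, 293 and 268 CPM in interferon-high cells, against 182, 204, 265 and 180.5 CPM in the others. Nfkbia and Lgals9 rose by 0.35 ± 0.07 and 0.96 ± 0.06. Ifi204 is a PYHIN gene that was counted on this list and not with the PYHIN genes. It was called higher over all libraries (3.36 ± 0.29), with log2 changes of 0.23 and 0.61 in BALB/c against 3.02 and 3.49 in B6. Socs2 fell by 0.80 ± 0.16 and Ptpn6, the phosphatase SHP-1, by 0.33 ± 0.05, both on the log2 scale.

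MHC class I and peptide-loading genes rose as a group but by less: 20 of 21 were called higher, with a median log2 change of 0.56. The immunoproteasome subunit Psmb8 was at 1146, 953, 906 and 773 CPM in interferon-high cells, against 594, 543, 609.9 and 506 CPM in the others (0.67 ± 0.05). H2-K1, a classical class I heavy chain, was at 3359, 3391, 3282 and 3154 CPM in interferon-high cells, against 2528, 2398, 2727 and 2592 CPM in the others (0.35 ± 0.04). Neither gene overlapped between the groups. B2m, the shared light chain, rose by 0.35 ± 0.04, the peptide transporter Tap1 by 0.95 ± 0.07 and the loading factor Tapbp by 0.92 ± 0.06. The nonclassical genes H2-T24, H2-T22 and H2-T23 rose by 2.05 ± 0.15, 1.22 ± 0.06 and 0.93 ± 0.05. Class I heavy chain genes are polymorphic between strains and alike in sequence, so their levels across strains are uncertain.

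Of 15 surface proteins 13 rose. Bst2 (tetherin), which holds budding virions at the membrane, was at 623, 595, 587 and 651 CPM in interferon-high cells, against 146, 117, 126 and 131 CPM in the others. Its log2 change of 2.27 ± 0.05 varied little between libraries, and its adjusted p was 2.6e-52 (edgeR quasi-likelihood test, Benjamini-Hochberg adjustment). Ly6a (Sca-1) was at 86.3, 139, 868 and 815 CPM in interferon-high cells, against 30.5, 7.44, 303 and 299 CPM in the others (1.53 ± 0.07). Cd274, the checkpoint ligand PD-L1, was at 55.5, 28.5, 53.7 and 65.7 CPM in interferon-high cells, against 10.7, 9.04, 12.1 and 21.1 CPM in the others (1.76 ± 0.12). Ifitm3, a block to virus entry, rose by 2.02 ± 0.08, Lgals3bp by 1.54 ± 0.06 and Ms4a4b by 0.86 ± 0.04.

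**Figure D3:**
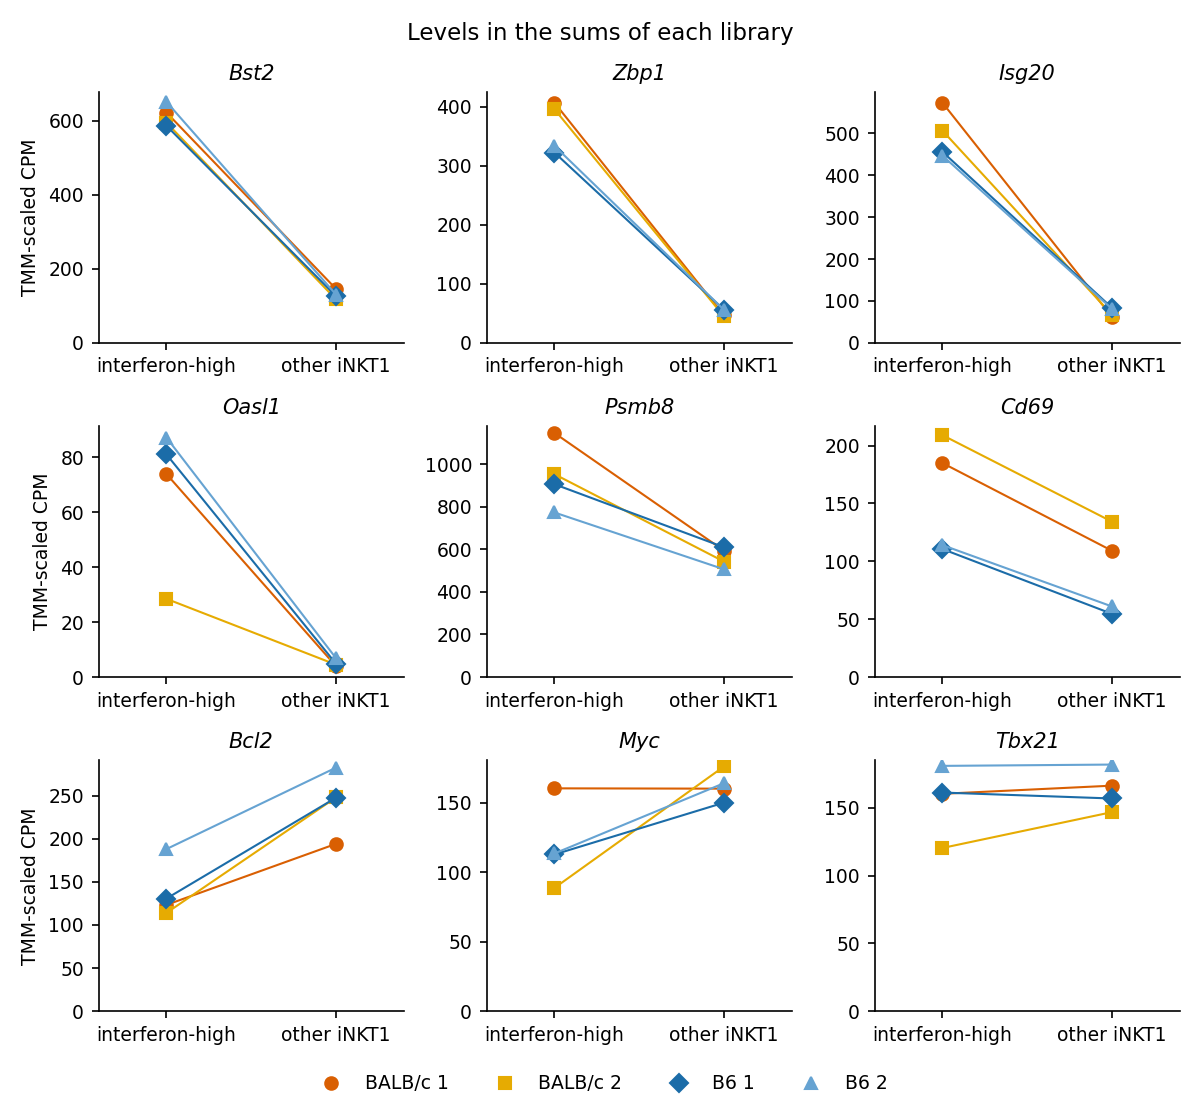
Scaled CPM of 9 genes in the sums of interferon-high (left) and other iNKT1-gated cells (right) of each panel, with lines joining the sums of a library. Bst2, Zbp1, Isg20, Oasl1, Psmb8 and Cd69 are higher and Bcl2 lower in interferon-high cells of every library, while Myc is level in BALB/c 1 and Tbx21 has no common direction.

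Most iNKT1 effector genes were not called. Of 20 tested 3 rose and 2 fell, beside 9.29% called over all tested genes, and the median log2 change was -0.015. By library the median was -0.60, 0.069, 0.050 and -0.028, with 16 genes lower in BALB/c 1. Il2rb of the iNKT1 gate, not tested, was lower in interferon-high cells of every library. It stood at 575, 733, 674 and 798 CPM, against 886, 845, 910 and 947 CPM in the others. Xcl1 was higher in every library, and Nkg7, Klrd1 and Klrk1 had no common direction. Tbx21, the master factor T-bet, was at 160.3, 120.3, 161 and 181 CPM in interferon-high cells, against 166, 147, 157 and 182 CPM in the others, a log2 change of -0.021 ± 0.07 that was not called. Ccl5, a chemokine of effector cells, was at 2712, 2223, 995 and 429 CPM in interferon-high cells, against 3337, 2337, 864 and 489.5 CPM in the others, and was not called either. In some other settings Ccl5 was called lower, as at a cut of 5 UMIs (-0.24) or against cells with a sum of at most 1 (-0.18). Gzmb (granzyme B) rose by 0.59 ± 0.05 and did so in every library: 413, 712, 728 and 792 CPM in interferon-high cells, against 301, 396, 505 and 537 CPM in the others. Il12rb2 rose by 0.22 ± 0.07, and the growth factor Csf1 by 1.02 ± 0.24, although Csf1 was lower in interferon-high cells of BALB/c 1, where it had 1 UMI. Zfp683 (Hobit) and Klrb1c (NK1.1) fell by 0.24 ± 0.07 and 0.20 ± 0.06 on the log2 scale. With DESeq2 only Gzmb of these 5 genes was called, and Il12rb2, Zfp683 and Klrb1c were not called without B6 1 nor without B6 2. Of 9 iNKT2 genes 1 fell, Hivep3, by 0.64 ± 0.15, and Il4 was not called (0.28, adjusted p = 0.055 by edgeR's quasi-likelihood test with Benjamini-Hochberg adjustment). In some other settings Il4 was called higher, as with the B6 libraries alone (0.32), while with BALB/c alone its change was -1.31. Rora, the only iNKT17 gene tested, rose by 0.51 ± 0.14. Neither Hivep3 nor Rora was called with DESeq2 or without B6 2.

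Among genes of homing and retention 4 of 15 rose and 2 fell. Cd69, which holds lymphocytes in tissue by pulling down the egress receptor S1pr1, was at 185, 209, 111 and 114 CPM in interferon-high cells, against 109, 134, 54.6 and 61.0 CPM in the others (0.88 ± 0.08). S1pr1 itself had between 1 and 40 UMIs in the interferon-high sums and was not called, with a log2 change of 0.17 ± 0.26. Itgae (CD103), the integrin that binds E-cadherin, was at 431, 484, 333 and 312 CPM in interferon-high cells, against 279.9, 365, 234 and 239.8 CPM in the others (0.44 ± 0.06). Its partner chain Itgb7 rose by 0.24 ± 0.06 and the chemokine receptor Cxcr6 by 0.15 ± 0.05. Klf2, the factor that drives S1pr1, fell by 0.28 ± 0.06 and Itga4 by 0.88 ± 0.16, on the log2 scale. Itga4 stood at 92.5, 19.0, 8.43 and 14 CPM in interferon-high cells, against 97.3, 88.3, 31.2 and 21.6 CPM in the others, lower in every library but close in BALB/c 1. With DESeq2 Itgb7, Cxcr6, Klf2 and Itga4 were not called, and Cd69 and Itgae were. Itgb7, Cxcr6 and Klf2 were not called without B6 2 either, and Itgb7 and Klf2 not with depth-matched comparison cells.

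Of 14 NK receptor genes 7 fell and none rose, with a median log2 change of -0.29. Klra7 (Ly49G) was at 98.6, 98.2, 22.1 and 35.0 CPM in interferon-high cells, against 187, 236, 76.1 and 53.3 CPM in the others, and fell by 0.90 ± 0.11 on the log2 scale. The groups overlap across strains for Klra7, and within each library its interferon-high cells were lower. Klrc1 (NKG2A) was at 154, 326, 154 and 154 CPM in interferon-high cells, against 279, 349, 209 and 203 CPM in the others. It fell by 0.39 ± 0.07, and Klra3 and Klra9 fell by 0.30 ± 0.07 and 0.27 ± 0.06, on the same scale. Klra genes are near copies that differ between strains, so the split of reads is uncertain. These calls depended on the fit: DESeq2 called 2 of the 14 lower, and 3 of 12 tested were called lower without B6 2.

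The survival factor Bcl2 fell by 0.70 ± 0.07 on the log2 scale. It was at 123, 114, 131 and 188 CPM in interferon-high cells, against 194, 248, 247 and 282 CPM in the others, without overlap. Bax, which opens the mitochondrial membrane, fell by 0.22 ± 0.07. Daxx, a histone chaperone linked to cell death, was at 148, 177, 137 and 152 CPM in interferon-high cells, against 47.5, 51.6, 49.7 and 43.3 CPM in the others (1.73 ± 0.07). Casp8 and the pore-former Gsdmd rose by 0.48 ± 0.08 and 0.46 ± 0.11. The other 11 of 16 tested death and survival genes were not called. Of 12 genes induced by the T cell receptor, Pdcd1 (PD-1) rose by 0.41 ± 0.12 and Myc fell by 0.51 ± 0.08 on the log2 scale. Myc was at 160.3, 88.7, 113 and 113 CPM in interferon-high cells, against 160.0, 176, 149.97 and 164 CPM in the others, level in BALB/c 1 and lower in the remaining libraries. Among 15 immediate early and stress genes, Dnaja1 rose by 0.21 ± 0.05 and Zfp36 fell by 0.22 ± 0.07. Among 10 T-lineage factors Bach2 rose by 0.46 ± 0.12. Of the death and survival genes 3 rose and 2 fell. In the T cell receptor and the immediate early lists 1 gene rose and 1 fell each, and 1 T-lineage factor rose. The lists are short, and their shares were not tested against the 9.29% called over all tested genes. With DESeq2 Bax, Gsdmd, Pdcd1, Zfp36 and Bach2 were not called, while Bcl2, Daxx, Casp8, Myc and Dnaja1 were. Zfp36 and Dnaja1 were not called without B6 1 nor without B6 2, and Zfp36 not at cuts of 5 or 12 UMIs.

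Outside the lists the genes with the largest falls included many that serve ribosome assembly, and a list of 55 ribosome biogenesis factors was drawn up after these values were seen. Of the 55 genes 34 fell and none rose, with a median log2 change of -0.43, or -0.76, -0.29, -0.35 and -0.40 by library. Nop58, a core protein of box C/D RNA-protein particles, was at 61.6, 82.3, 78.0 and 62.5 CPM in interferon-high cells, against 116, 112, 109 and 98.4 CPM in the others. It fell by 0.61 ± 0.09 on the log2 scale. Nolc1 and Gar1, which act in the same nucleolar particles or those of the box H/ACA class, fell by 0.63 ± 0.09 and 0.67 ± 0.10. The abundant nucleolar proteins Npm1 and Ncl fell by 0.25 ± 0.05 and 0.27 ± 0.06. The assembly factors Grwd1 and Bysl fell by 0.78 ± 0.16 and 0.73 ± 0.17, each with 1 UMI in interferon-high cells of BALB/c 2. The calls rest on the largest library and on the fit: 9 of the 55 were called lower without B6 2, and 9 with DESeq2. The largest fall under the naming rule was that of Tmem163, a zinc transporter, by 1.03 ± 0.14, with 12.3, 12.7, 8.43 and 20.4 CPM in interferon-high cells, against 21.5, 23.1, 26.1 and 40.1 CPM in the others. The base-excision enzyme Apex1 fell by 0.76 ± 0.13.

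Markers of other cell types were measured beside these changes. The 8 genes of double-positive thymocytes summed to 94.7, 232, 92.3 and 101 CPM in interferon-high cells, against 134, 85.2, 67.3 and 74.7 CPM in the others. Of 4 tested, Rag1, Cd8b1 and Cd4 rose, by 1.53 ± 0.30, 0.74 ± 0.21 and 0.37 ± 0.11. Rag1, a recombinase subunit of immature thymocytes, had 0 UMIs in interferon-high cells of both BALB/c libraries, with the limits given for Oas1a, and stood at 21.1 and 8.80 CPM in those of B6, against 4.40 and 3.83 CPM in the other B6 cells. With DESeq2 none of these genes was called. With comparison cells matched for depth Cd8b1 and Cd4 were not called, and Rag1 was not tested. Ikzf2, the single gene tested of the regulatory T cell markers, rose by 0.55 ± 0.08. Its log2 change was -0.23 in BALB/c 2, and it was not called with DESeq2. Foxp3 of the same list had 0, 0, 0 and 1 UMI in interferon-high cells. In B cell, myeloid, plasmacytoid dendritic and thymic epithelial lists 1 gene each passed the filter on low counts and none was called. B cell markers summed to 101 to 190 CPM in interferon-high cells, against 91.5 to 179 CPM in the others, and myeloid markers to 123 to 196 CPM, against 129 to 197 CPM. Lyz2, Itgam, C1qa, Siglech, Spib, Igkc, Krt5 and Aire had 0 UMIs in interferon-high cells of all libraries, which allows each up to 0.447 CPM. The part of admixed cells or free RNA in the changes was not tested.

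The summed level of the other interferon genes rose with the size of the sum, except at its top in BALB/c 1. There it was 50490 CPM with a sum of 16 to 31 and lower with 32 or more. Single genes could depart from this order. Irf9 in B6 1 was at 109, 94.8, 120 and 87.7 CPM with sums of 4 to 7, 8 to 15, 16 to 31 and 32 or more. In cells with a sum of 0, the interferon-list genes outside the sum together stood at 23529, 22615, 25737 and 26031 CPM. With a sum of 8 to 15 they reached 39979, 41947, 39399 and 40620 CPM, and with a sum of 32 or more 47327, 56108, 62535 and 60247 CPM. Isg20 stood at 39.4, 41.8, 56.3 and 51.0 CPM in cells with a sum of 0 and at 662, 956, 801 and 735 CPM in those with 32 or more. In BALB/c each group above 7 held 6 to 27 cells, fewer than 20 in most. Cells just below the threshold were intermediate: with a sum of 4 to 7, Isg20 was at 177, 143, 186 and 184 CPM. Nkg7 showed no such order, with 1821, 1725, 1751 and 1663 CPM at a sum of 0 and 1112, 2128, 1771 and 1484 CPM at 32 or more. These strata were cut on the sum itself and are a description.

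**Figure D4:**
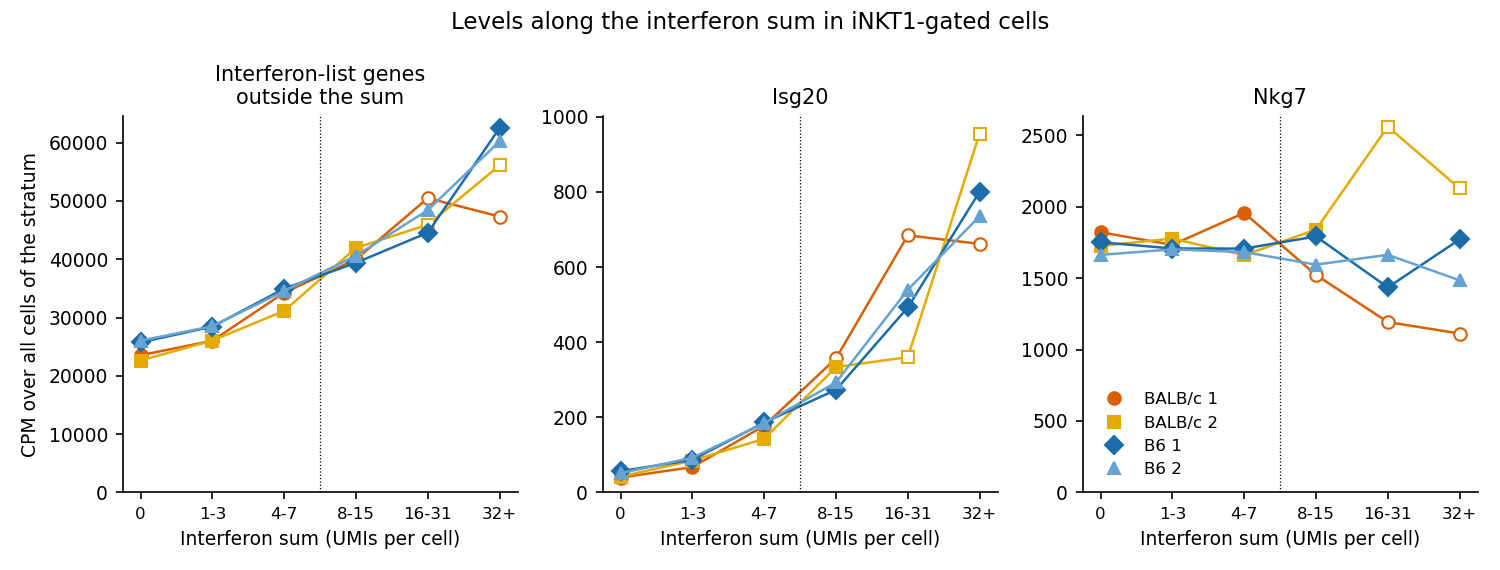
CPM (y axis) of all interferon-list genes outside the sum, of Isg20 and of Nkg7 over iNKT1-gated cells grouped by the interferon sum in UMIs (x axis), a line for each library, with open symbols for groups under 20 cells and a dotted line at the threshold. The interferon-list genes and Isg20 are higher in cells of larger sums on both sides of the threshold, except that they level off in BALB/c 1 above 31, and Nkg7 shows no such order.

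Whether the change in interferon-high cells differed between strains was tested as an interaction over the same 8 sums. It was called for 19 of 9374 genes (0.203%) by edgeR's quasi-likelihood test, while DESeq2 called 0. The signed log2 change was higher in BALB/c for 10 of them and higher in B6 for 9. At an unadjusted p under 0.05 DESeq2 listed 155 genes. Ly6a had log2 changes of 1.47 and 4.05 in BALB/c against 1.52 and 1.44 in B6, so the difference came from BALB/c 2. Ifitm3 had changes of 1.23 and 1.78 in BALB/c against 1.67 and 2.40 in B6. For effectors, the median change of the list was 1.60 and 1.78 in BALB/c against 1.74 and 1.81 in B6, and for class I genes it was 0.62 and 0.68 in BALB/c against 0.57 and 0.53 in B6. Without B6 1 the count fell to 3, without B6 2 to 2 and with depth-matched comparison cells to 2.

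The same split was made in iNKT2-gated cells, the interleukin-4-producing subset, to see where interferon-high iNKT1 cells differed. Because iNKT2-gated cells had more UMIs, with medians of 14808, 15254.5, 12341.5 and 12602.5, cells of both gates were called high from 10 UMIs of the interferon sum per 10000. This gave 935 iNKT1-gated and 330 iNKT2-gated cells. With the cut of 8 UMIs after thinning to 5000 UMIs, the interferon-high share of iNKT2-gated cells was 2.99 and 2.76% in BALB/c libraries and 9.84 and 11.9% in B6 libraries. The strains did not overlap there, whereas the iNKT1-gated shares given above did, and the exact permutation p of 0.33 is the smallest that 2 against 2 can give. Of 9330 genes tested in iNKT2-gated cells 419 rose (4.49%) and 336 fell (3.6%), together 755 (8.09%), and the interferon lists had 120 of 146 tested members higher and 0 lower. The ribosome biogenesis factors fell in 37 of 55 cases. The change was called different between the gates for 33 of 9262 genes (0.356%), 23 with the higher signed log2 change in iNKT1-gated cells. Of the interferon lists 15 genes had the higher signed change in iNKT1-gated cells and 2 in iNKT2-gated cells, Socs1 and Ly6c2.

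Zbp1 rose by 2.73 ± 0.07 in iNKT1-gated cells and by 1.83 ± 0.07 in iNKT2-gated cells, and this difference was called, at 0.92 ± 0.11. Bst2 changed by 2.34 ± 0.05 in iNKT1-gated cells and by 1.69 ± 0.07 in iNKT2-gated cells (difference 0.66 ± 0.09). Slfn5, Oasl1 and Iigp1 likewise had larger changes in iNKT1-gated cells, by 1.19 ± 0.17, 1.31 ± 0.21 and 1.79 ± 0.27. Socs1 went the other way, with 0.51 ± 0.06 in iNKT1-gated cells and 1.10 ± 0.09 in iNKT2-gated cells (difference -0.62 ± 0.12). For Bcl2 the changes of -0.73 ± 0.07 in iNKT1-gated and -0.75 ± 0.17 in iNKT2-gated cells were not called different. For Myc they were -0.61 ± 0.08 in iNKT1-gated cells and -0.65 ± 0.12 in iNKT2-gated cells. With the cut of 8 UMIs in both gates 90 genes were called different, and without B6 2 14 genes. Both gates draw on the same libraries.

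**Figure D5:**
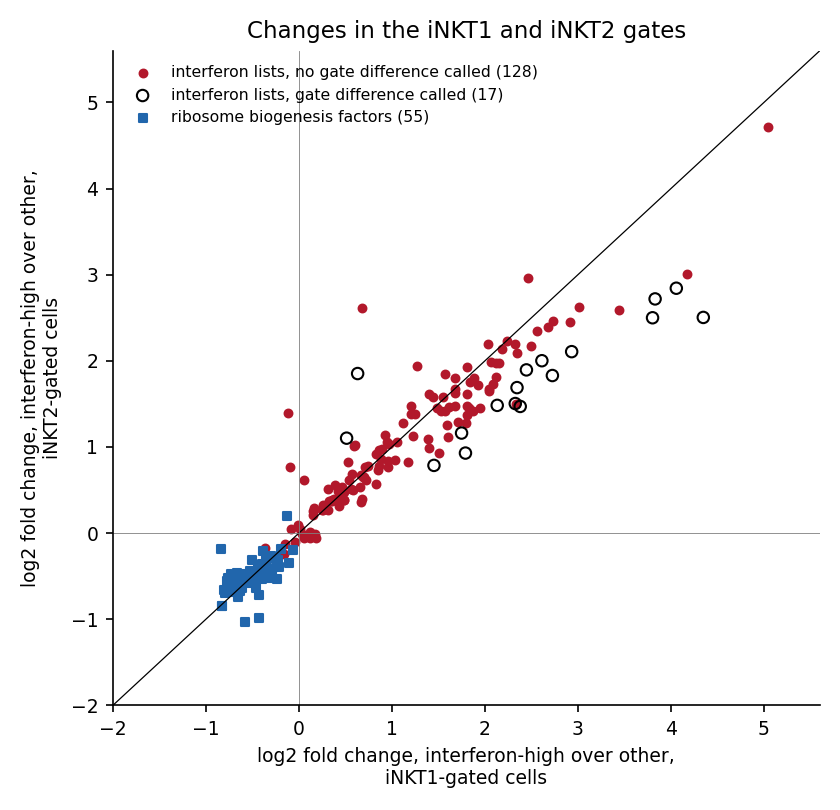
Log2 fold change of interferon-high over other cells in iNKT1-gated (x axis) and iNKT2-gated cells (y axis), with 145 interferon-list genes, of which 17 had a called difference between the gates and are drawn as open circles, and 55 ribosome biogenesis factors. Most of the circled genes lie below the line of equal change, with Socs1 and Ly6c2 above it, and the ribosome biogenesis factors cluster below 0 in both gates.

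Receptor usage was compared as a last property outside the rule. Among cells with a callable beta chain segment, Trbv13 was the main segment in 52.6, 75, 69.4 and 68.8% of interferon-high cells, against 70.1, 68.6, 71.5 and 72.4% of the other iNKT1-gated cells. The lowest value, in BALB/c 1, rests on 10 of 19 cells and has an exact 95% interval of 28.9 to 75.6%, which covers the share in the other cells. In B6 2, with 640 callable interferon-high cells, the interval of 65.0 to 72.3% ended just below the share in the other cells. Trbv29 was the main segment in 21.1, 9.09, 18.5 and 17.5% of interferon-high cells, against 10.2, 10.9, 14.2 and 14.6% of the others. These intervals cover counting error only, and segment use was not tested over libraries.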

How the data were processed

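For each of 4 libraries the authors deposited raw UMI counts by gene and barcode, as whole numbers without normalization. Cell Ranger 7.1.0 and mm10 are named in the submitters' processing notes, but per the file headers version 7.1.0 made B6 2 and version 6.0.0 the other libraries. The sources used here do not give the counting of intronic reads. Members, gene lists, tests and alternatives were chosen with earlier results of these data known.

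Cells with at least 500 genes, at least 1000 UMIs and at most 10% mitochondrial UMIs were kept. Total UMIs per library were 23124810, 22798414, 20406245 and 82904358 (BALB/c, then B6). Counts were summed per library and group of cells (8 sums; 158380 to 5214891 UMIs in interferon-high cells) and compared by the quasi-likelihood test of edgeR 4.0.16 (filterByExpr, TMM factors, library as a block, Benjamini-Hochberg over all tested genes, threshold 0.05). CPM values of tested genes are TMM-scaled and those of rule genes, marker sums and strata are not. SE is the absolute log2 change divided by the square root of F. Interactions tested the strain and the gate. DESeq2 1.42.0 was an alternative, others being other cuts, filters, depth matching and left-out libraries. Shares were compared by exact permutation over libraries. Doublets were ranked by Scrublet in scanpy 1.11.5, 0.8% per 1000 barcodes. Named genes were the up to 5 members of lowest p per list, the 10 largest called changes per direction at 20 CPM or more with the same sign in every library, and a fixed set; others singled out in the text were chosen after their values were seen. Of the symbols on the lists 5 are not analysed here, and some genes that meet the rule are not reported here. The fit was tested on simulated data.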

Additional observations from a re-analysis of the deposited data

Results flagged for a closer look

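The change of 11 named genes between interferon-high and other iNKT1-gated cells differed between the strains by an interaction term of edgeR's quasi-likelihood test (Benjamini-Hochberg adjusted p from 2.5e-06 to 0.044). Differences are the BALB/c change minus the B6 change on the log2 scale, and DESeq2 called none of them. The signed change was higher in BALB/c for Rln3 by 1.91, Cd8b1 by 1.56, Ly6a by 1.54, Ifitm2 by 0.89, Gzma by 0.61 and Isg20 by 0.56. It was higher in B6 for Ifi204, with a difference of -3.46, Ifitm1 (-2.67), Nfkbia (-0.73), Ifitm3 (-0.64) and Il7r (-0.34). A higher signed change need not be larger in size, as the values of Ifitm1 and Il7r below show.

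The libraries of a strain often disagreed. Gzma, a granzyme, changed by -0.69 and 1.04 in BALB/c and by 0.08 and -0.19 in B6. Cd8b1, a coreceptor chain, changed by -0.90 and 2.71 in BALB/c and by -0.05 and 0.32 in B6. Ifitm2 changed by -1.11 and 1.5 in BALB/c and by -0.28 and 0.27 in B6, and Ifitm1 by -3.24 and -0.87 in BALB/c and by 2.48 and -0.26 in B6. Both libraries of a strain had a change of the same sign for Rln3, which was largest in BALB/c 1, with 1.98 and 0.32 in BALB/c against -0.49 and -0.70 in B6, and for Il7r, with -0.23 and -0.12 in BALB/c against 0.20 and 0.15 in B6. Nfkbia changed by 0.08 and -0.52 in BALB/c against 0.41 and 0.47 in B6. Ifi204 changed by 0.23 and 0.61 in BALB/c against 3.02 and 3.49 in B6, and Isg20 by 3.18 and 2.89 in BALB/c against 2.43 and 2.44 in B6. The part of the small BALB/c sums (20 and 47 cells) was not tested.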

How the results depend on the processing

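The 871 genes called in the comparison of interferon-high with other iNKT1-gated cells (1735 at an unadjusted p under 0.05) became 612 to 1110 under other cuts, comparison cells, filters and scalings. The count was 299 with DESeq2, 151 with no replicate block for the library, and 183 with BALB/c libraries only. Leaving out a library gave 297 to 912, the lowest without B6 2 and 484 without B6 1. Fits with doublets removed or a cut of 12 UMIs had too few cells in BALB/c 1 and used 3 libraries. With all 4 libraries they gave 980 and 689. The strain difference of 19 genes became 2 with depth-matched cells, 7 with doublets removed, 0 with DESeq2 and 2 to 16 without a library. The iNKT2-gate count of 755 was 327 to 662 without a library, and the gate difference of 33 was 14 to 39, and 90 with the cut of 8 UMIs. Alternatives that leave out a BALB/c library, use a single strain, or bear on the strain and gate differences were chosen after seeing the data.

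The strain difference in share, -3.08 points, was -4.58 to -1.59 without a library, and that per 10000 UMIs -1.64 to -0.43. The shared replicate numbers do not pair a BALB/c with a B6 library (r = 0.02 between deviations of same-numbered libraries), and with such a replicate block the exact p was 0.5 for both. The library block pairs the sums of a library, whose deviations correlated at 0.25, 0.38, 0.51 and 0.73.

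Of 115 tested genes named, 108 were called, and 106 of these kept their direction in every one of 21 settings that tested them. Calls of named genes were lost for 29 with DESeq2, 56 with no replicate block, 36 with BALB/c only, 23 without B6 2, 12 without B6 1, and 0 to 13 in the other settings. Nfkbia reversed with BALB/c only (-0.24), and Cd4 with BALB/c only (-0.069); without a library Cd4 ranged from -0.0074 (without B6 2) to 0.40. Among genes not called, Ifng reversed with no replicate block (-0.13) and with BALB/c only (-0.13), and S1pr1 with no replicate block (-0.031). Il4 reversed with BALB/c only (-1.31) and DESeq2 (-0.050), and ranged from -0.062 (without B6 2) to 0.31 without a library. Gzma ranged from -0.17 (without BALB/c 2) to 0.30 without a library and reversed with B6 only (-0.11), and at cuts of 5 (-0.12) and 12 UMIs (-0.22; all libraries -0.21). Tbx21 reversed at cuts of 5 (0.031) and 12 UMIs (0.038; all libraries 0.019), at the relative cut (0.0078) and with doublets removed in all libraries (0.0087). The cause was not tested. In BALB/c, interferon-high sums of 158380 and 327362 UMIs put a gene with 1 to 3 UMIs near the limit of detection.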
